A study of Mus musculus with 13 samples.

Results

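The sites described here are insertions of a Sleeping Beauty transposon found away from chromosome 6, where the insertions crowded. They were taken from a single pool of F123 cells, an embryonic stem cell line from a cross of Cast and 129 mice, after Sleeping Beauty transposase had been expressed to remobilize transposons of a parental line (the remobilized pool). All deposited positions of that pool on chromosomes 1 to 19 except 6 were used, and positions within 10 bp of each other on either strand were counted as 1 site. This gave 483 sites from 491 positions, which is 64.7% of the 746 sites of the pool and 60.3% of its placed reads. Chromosome 6 alone held 244 sites (32.7%), 122 of them within 1 Mb, while no 1 Mb elsewhere on the 18 chromosomes held more than 5. It is therefore taken as the launch chromosome, which the labels do not name. The other 19 sites lay on chromosomes X and Y or on unplaced contigs. The reference is the pool in which transposons were launched from many copies of a transfected plasmid (the plasmid pool), with 27705 sites on the same 18 chromosomes. Both pools are labelled wild type, grew in serum-free medium with 2i/LIF, carry the same batch label and consist of 1 library each. T7 RNA polymerase was run on purified genomic DNA, and the transcripts from the T7 promoter inside the transposon were sequenced to find its junctions with the genome. The files analysed cover 12 of 13 samples; the control without transposons held 1 read without a position, and the parental line was not analysed here, so whether a site was there before remobilization was not tested. With 1 library per pool the tests compare these libraries and not the conditions, sites are not replicates, and intervals (95% exact Clopper-Pearson) cover counting error only.

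Sleeping Beauty belongs to the Tc1/mariner family of cut-and-paste transposons. The transposase binds the inverted repeats at both ends, excises the element and inserts it at a TA dinucleotide, which is duplicated in the process. An element that leaves a chromosomal donor often lands close by, which is called local hopping, while an element launched from a plasmid has no chromosomal donor. Sleeping Beauty is known for a weak preference for genes compared with retroviruses and some other transposons.

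The target dinucleotide could be read at sites inside an annotated exon, where the GENCODE M21 transcripts of GRCm38 give the bases. The following stretches are shown because they mark where the element joined the genome at the 7 of these sites with 6 or more reads, in the coding exons of Kif11 and Htt, and, as an example of a stretch rich in TA, in Usp29. Each is 28 bases of the plus strand, 5′ to 3′, and the capitals mark the TA whose A is nearest to the deposited base, or the lower of a tie.
Nsd1, chr13:55215399-55215426, 17 reads: ttgtctatgtgtaTAgttttgtcttctc
Slc27a4, chr2:29807021-29807048, 12 reads: atcaggccataTAcatagctactttccc
Zbtb37, chr1:161012225-161012252, 11 reads: cacagtgcctggTAcctgaagagggatt
Klhl12, chr1:134473694-134473721, 8 reads: ttaaccataaaaaTAgtttcttattcac
Lpin1, chr12:16559306-16559333, 7 reads: atgggtaggtagaTAgataaatgattca
Eif2b2, chr12:85226096-85226123, 6 reads: acgcaccatccTAcatctaccgcctgat
Gpr84, chr15:103308639-103308666, 6 reads: aacaggaaggggatgTAgctgagggcga
Kif11, chr19:37390839-37390866, 3 reads: gtacaagaacatcTAtaattgcaaccat
Htt, chr5:34870765-34870792, 1 read: tgaaggcagcttcTAtactctagagagc
Usp29, chr7:6738186-6738213, 2 reads: aaatgtttatataTAtattatatatata
In Nsd1, Klhl12, Lpin1, Kif11, Htt and Usp29 the deposited base is the A of the TA. In Zbtb37 the TA lies 1 base lower, in Slc27a4 and Eif2b2 2 bases lower, and in Gpr84 2 bases higher. Slc27a4 has a second TA with its A 2 bases above the deposited base, equally near. The Usp29 stretch, from an exon of a transcript of that gene, holds runs of alternating T and A around the deposited base, with several TA dinucleotides side by side.

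Bases were readable at 37 of the 483 sites and at 1401 sites of the plasmid pool. The pair made of the deposited base and its lower neighbour was TA at 26 of 37 sites (70.3%, 53.0 to 84.1) and at 70.9% (68.5 to 73.3) of plasmid pool sites. Within 2 bp the shares were 89.2% and 92.6%. The difference at the fixed place was -0.68 percentage points (two-sided Fisher's exact test, Benjamini-Hochberg over 2 comparisons, adjusted p 1.000). In all 32851 RefSeq promoter windows of GRCm38.p6, each 250 bases before to 50 after a start, TA made up 3.81% of neighbouring base pairs. These windows are another set of sequences than the exons in which sites were mostly read, and no such share is given for exons. Around the TA, the third base before it was A at 18 of 26 sites (69.2%) and at 64.2% of 994 plasmid pool sites. The third base after it was T at 14 of 26 sites (53.8%) and at 68.0% of the plasmid pool sites. These flanking bases are a description without a test.

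The first comparison asked how far from the starts of protein-coding genes the sites lay. Sites of the remobilized pool off chromosome 6 lay much closer to gene starts than plasmid pool sites. The median distance was 15.6 kb (quartiles 5.84 and 52.3 kb) against 57.9 kb (17.2 and 197.6 kb). Within 5 kb of a start there were 108 of 483 sites (22.4%, 18.7 to 26.3), against 2506 of 27705 (9.05%, 8.71 to 9.39) in the plasmid pool. This is an odds ratio of 2.90, with an adjusted p of 4.80e-18 by Fisher's exact test (two-sided, Benjamini-Hochberg over 4 distances). Stretches within 5 kb of a start make up 7.78% of the span of the 18 chromosomes, so that the plasmid pool was near that share.

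The difference was present at each of the 4 distances. Within 10 kb of a start lay 181 sites (37.5%, 33.1 to 42.0) against 16.3% of the plasmid pool, and within 50 kb 357 sites (73.9%, 69.8 to 77.8) against 46.7% (Fisher's exact test, adjusted p 3.65e-28 and 1.09e-32). Within 1 kb lay 16 sites (3.31%, 1.91 to 5.32) against 1.64% (Fisher's exact test, adjusted p 0.0102). In steps of distance, the ratio of the shares was highest from 1 to 2 kb, where 34 sites (7.04%) stood against 1.75% of the plasmid pool, a ratio of 4.01. It was 2.12 from 2 to 5 kb, 2.09 from 5 to 10 kb, 1.63 from 10 to 20 kb and 0.936 from 20 to 50 kb. Over 200 kb from any start lay 38 sites (7.87%, 5.63 to 10.6), against 24.8% of the plasmid pool (Fisher's exact test, Benjamini-Hochberg over 2 distances, adjusted p 3.33e-21). The site nearest to a start was 298 bp away, and 5 sites lay within 500 bp (1.04%, 0.337 to 2.40), against 0.664% of the plasmid pool.

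**Figure D1:**
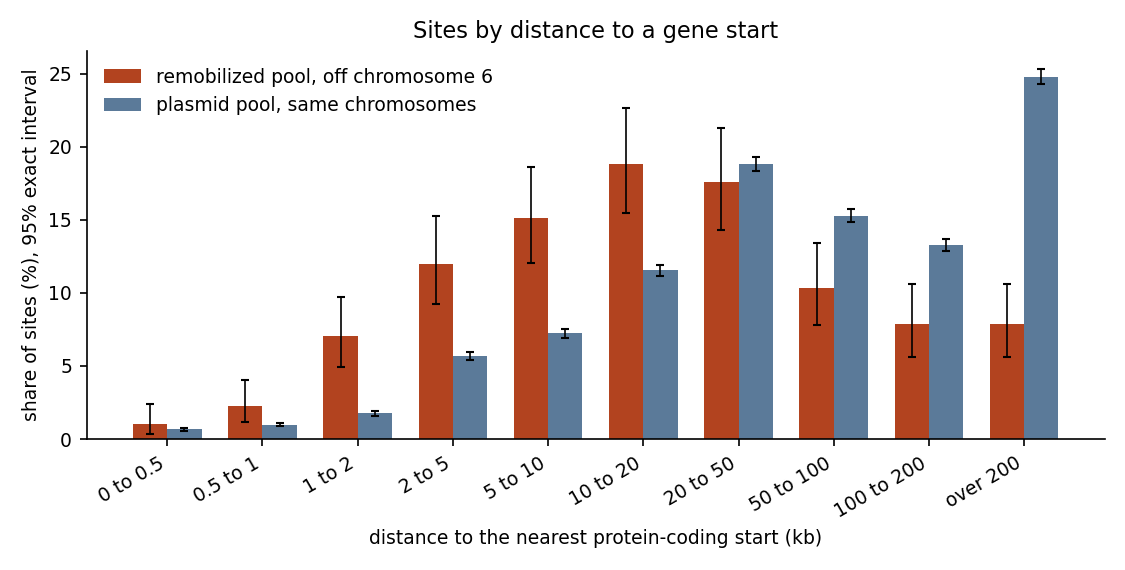
Share of sites (%) by distance in kb to the nearest protein-coding gene start, for the 483 sites of the remobilized pool off chromosome 6 and the 27705 plasmid pool sites on the same chromosomes; bars are shares of 1 library and lines are 95% exact Clopper-Pearson intervals. The remobilized pool stands above the plasmid pool from 0.5 to 20 kb and far below it over 200 kb, with 7.87% against 24.8%.

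Sites near starts were divided about equally between both sides of the start, and the excess was found inside as well as outside genes. Of the 108 sites within 5 kb, 56 lay upstream and 52 downstream of the start, so that 51.9% (42.0 to 61.6) were upstream, against 48.6% of the plasmid pool sites (adjusted p 0.773 by Fisher's exact test, over 3 tests). Among sites inside protein-coding genes 25.9% lay within 5 kb of a start, against 11.7% in the plasmid pool. Among sites outside them the shares were 19.1% and 6.86% (Fisher's exact test, Benjamini-Hochberg over 2 comparisons, adjusted p 3.95e-09 and 3.62e-10). Gene ends gave smaller odds ratios than starts at 3 of the 4 distances. Within 5 kb of a gene end lay 77 sites (15.9%, 12.8 to 19.5) against 8.55%, an odds ratio of 2.03 (Fisher's exact test, Benjamini-Hochberg over 4 distances, adjusted p 2.62e-07). Within 1 kb the odds ratio was 2.37 for ends and 2.06 for starts. Whether starts and ends differ was not tested.

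Gene density moved with this result. The sites had a median of 13 protein-coding starts within 500 kb (quartiles 7 and 23), against 6 (2 and 13) in the plasmid pool. Regions with 15 or more starts held 227 sites (47.0%, 42.5 to 51.6) against 20.7% of the plasmid pool, and regions with under 5 starts held 77 sites (15.9%, 12.8 to 19.5) against 39.6%. Fisher's exact test with Benjamini-Hochberg adjustment over 3 classes gave 1.49e-36 and 6.21e-29. In the middle class the shares were 37.1% and 39.6% (Fisher's exact test, adjusted p 0.260).

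Within a class of gene density the share near a start was therefore compared again. In regions with 15 or more starts, 79 of 227 sites (34.8%, 28.6 to 41.4) lay within 5 kb of one, against 21.7% of 5747 plasmid pool sites (Fisher's exact test, Benjamini-Hochberg over 3 classes, adjusted p 2.83e-05). With 5 to 14 starts, 27 of 179 did (15.1%, 10.2 to 21.2), against 9.50% (Fisher's exact test, adjusted p 0.0302). With under 5 starts, 2 of 77 did (2.60%, 0.316 to 9.07), against 1.96%, and a difference was not detectable at this number of sites (Fisher's exact test, adjusted p 0.665). When the plasmid pool was weighted to the mix of these classes, its share rose to 14.04%, and the difference of 13.3 percentage points became 8.32. The classes were chosen after the data were examined.

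Sites with many reads lay near starts most often. Reads count how often a junction was sequenced and carry no molecular identifiers. Of sites with 1 read, 41 of 219 (18.7%) lay within 5 kb of a start, of those with 2 reads 25 of 118 (21.2%), of those with 3 or 4 reads 18 of 80 (22.5%), of those with 5 to 9 reads 17 of 49 (34.7%), and of those with 10 or more 7 of 17 (41.2%, 18.4 to 67.1). In the plasmid pool the shares were between 8.98% and 9.12% up to 9 reads and 13.7% of 183 sites at 10 or more. Sites with at least 5 reads exceeded those with fewer by 16.2 points in the remobilized pool, 24 of 66 against 84 of 417 (Fisher's exact test, Benjamini-Hochberg over 5 comparisons, adjusted p 0.0313). For the plasmid pool this excess was 0.613 points (adjusted p 0.581 by Fisher's exact test). The limit of 5 reads was chosen after the data were examined, and at least 2 reads against 1 read gave 25.4% and 18.7% (Fisher's exact test, adjusted p 0.249). Whether the pools differ in this respect was not tested.

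**Figure D2:**
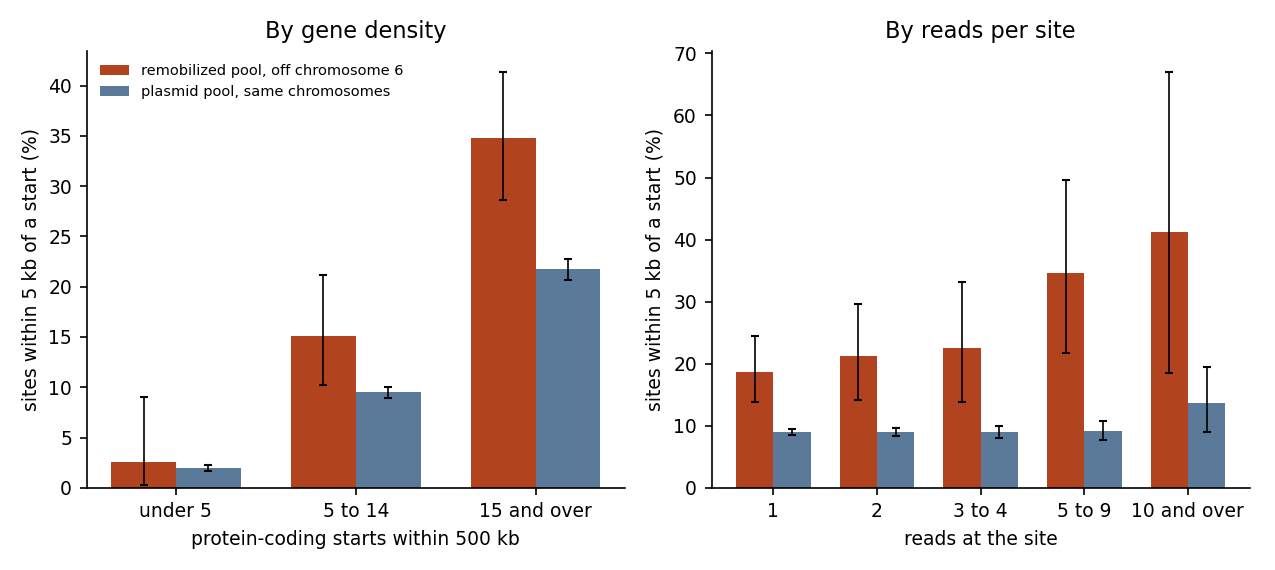
Share of sites (%) within 5 kb of a protein-coding start, on the left by the number of protein-coding starts within 500 kb and on the right by the reads at the site; bars are shares of 1 library per pool and lines are 95% exact intervals. The remobilized pool is above the plasmid pool in the denser classes, 34.8% against 21.7% in the densest, and rises from 18.7% at 1 read to 41.2% at 10 or more.

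The next question was which gene part was hit. About the same share of sites lay inside protein-coding genes in both pools. It was 232 of 483 sites (48.0%, 43.5 to 52.6) off chromosome 6 and 45.4% (44.8 to 46.0) in the plasmid pool, while genes cover 41.2% of the span (Fisher's exact test, Benjamini-Hochberg over 7 gene parts, adjusted p 0.583). Introns held 210 sites (43.5%, against 42.5%), untranslated regions 16 (3.31%, against 1.73%) and coding exons 6 (1.24%, against 1.13%). Genes for long noncoding RNAs without a protein-coding gene held 31 sites (6.42%, against 6.31%), and 218 sites (45.1%, against 47.4%) lay in no gene. None of the 7 parts passed the adjusted threshold of 0.05. The lowest adjusted p, 0.0970 in Fisher's exact test, was that of the untranslated regions, whose unadjusted p was 0.0139. First introns held 60 sites (12.4%, 9.62 to 15.7), against 9.67% (Fisher's exact test, adjusted p 0.183). With genes extended by 5 kb on both sides the shares did differ, at 63.4% and 51.4% (Fisher's exact test, adjusted p 1.31e-06).

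The genes that were hit were shorter than in the plasmid pool. The median length of the longest gene at a site was 58.7 kb (quartiles 26.8 and 139.5 kb) against 121.8 kb (49.8 and 312.9 kb). Genes over 100 kb held 77 of the 232 sites in genes (33.2%, 27.2 to 39.6) against 56.2% (55.3 to 57.1) of 12578 in the plasmid pool, a difference of -23.0 percentage points (Fisher's exact test, p 3.04e-12). For genes over 200 kb the shares were 16.4% and 36.2%, and for those over 50 kb 55.6% and 74.9%. Gene density moved with gene length too, and within classes of gene density the difference was smaller. With 15 or more starts within 500 kb it was 13.01% against 25.3% (Fisher's exact test, Benjamini-Hochberg over 3 classes, adjusted p 0.00407), with 5 to 14 it was 48.9% against 56.1% (Fisher's exact test, adjusted p 0.291), and with under 5 it was 18 of 21 against 88.2% (Fisher's exact test, adjusted p 0.731). With the plasmid pool weighted to the mix of classes the difference was -9.48 points. The longest annotated genes with a site were Fgfr2, a fibroblast growth factor receptor gene annotated over 2961 kb, Dab1, an adaptor of reelin signalling (1125 kb), and Sgcd, a sarcoglycan of muscle (1093 kb). Neither of the 2 sites in Fgfr2 lay in an intron of its principal coding transcript. For 1 of them the nearest start was that of Ate1, 3.92 kb away, and the other also lay in Zranb1. Dab1 and Sgcd were named after their values were seen.

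The strand given for a site was compared with the strand of the gene around it. Whether the deposited strand is that of the read or of the transposon is not given in the sources used here, so only its share was compared. Sites lay on the strand of the gene more often than in the plasmid pool, with 132 of 230 in genes of 1 strand (57.4%, 50.7 to 63.9) against 5967 of 12410 (48.1%, 47.2 to 49.0). The difference was 9.31 percentage points (Fisher's exact test, Benjamini-Hochberg over 3 tests, adjusted p 0.00932). Against equal shares the two-sided exact binomial test gave adjusted p-values of 0.0293 for these sites and 6.01e-05 for the plasmid pool, which leaned the other way. In first introns the share was 40 of 60 (66.7%, 53.3 to 78.3) against 49.0%, and in other introns 82 of 148 (55.4%, 47.0 to 63.6) against 48.2% (Fisher's exact test, adjusted p over 3 tests each 0.0202 and 0.145). With at least 2 reads per site the difference was 8.94 points and no longer past the threshold (131 sites, Fisher's exact test, adjusted p 0.0776), and with at least 5 reads it was 15.5 points on 39 sites (adjusted p 0.106).

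**Figure D3:**
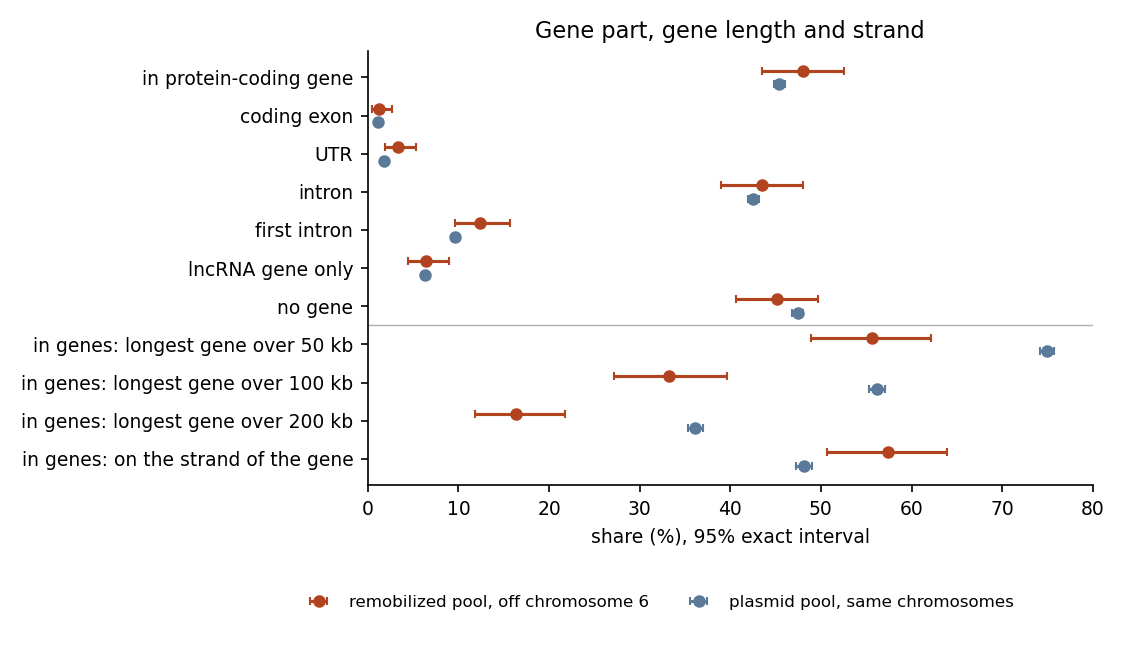
Share (%) of sites in each gene part, above the line as a share of all sites and below it as a share of sites in protein-coding genes; points are shares of 1 library per pool and lines are 95% exact intervals. The intervals overlap for 6 of the 7 gene parts. For untranslated regions (3.31% against 1.73%) they lie only just apart, at 1.91 to 5.32 and 1.58 to 1.89. The adjusted p there was 0.0970 by Fisher's exact test, and 2 of these 16 sites lie 19 bp apart in Chpt1. Genes over 100 kb hold 33.2% against 56.2% of the sites in genes.

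Sites were found on each of the 18 chromosomes, from 11 on chromosome 16 to 58 on chromosome 11. The overall density was 0.214 sites per Mb, and it ranged from 0.116 on chromosome 16 to 0.487 on chromosome 11. Of the 18 chromosomes, 2 differed in their share of sites from the plasmid pool at an adjusted p below 0.05 (11.1%), both upward. Chromosome 11 held 12.0% (58 sites) against 5.83% of the plasmid pool, and chromosome 19 held 5.80% (28 sites) against 2.76% (Fisher's exact test, Benjamini-Hochberg over 18, adjusted p 8.01e-06 and 0.00352). Both are rich in genes, with 13.8 and 12.3 protein-coding starts per Mb in a range of 5.50 to 14.2. Chromosome 7, with the highest density of starts, held 26 sites and a ratio of shares of 0.913. Over the 18 chromosomes, the ratio of the shares and the starts per Mb had a Pearson's r of 0.652 and a Spearman's rho of 0.581. Without chromosomes 11 and 19 Pearson's r was 0.374. These points come from 1 pair of libraries and are given as a description. With at least 5 reads per site 0 chromosomes were called, where 66 sites remained.

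**Figure D4:**
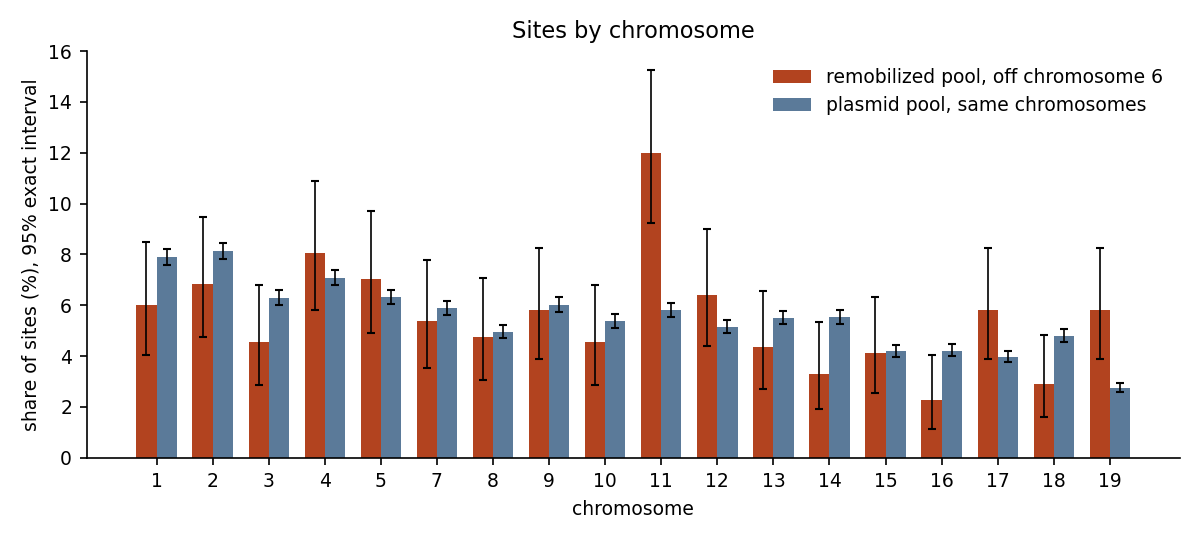
Share of sites (%) on each chromosome for the 483 sites of the remobilized pool off chromosome 6 and the 27705 plasmid pool sites on the same 18 chromosomes; bars are shares of 1 library and lines are 95% exact intervals. Chromosomes 11 and 19 stand above the plasmid pool, with 12.0% against 5.83% and 5.80% against 2.76%.

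Reads per site had the same median of 2 in both pools but a larger share of sites with 5 or more reads in the remobilized pool. The 483 sites held 1275 reads, from 1 to 23 per site against 1 to 45 in the plasmid pool, and 219 sites (45.3%) had 1 read, against 46.1% in the plasmid pool. At least 2 reads were found at 54.7% (50.1 to 59.2) of sites and at 53.9% of plasmid pool sites (Fisher's exact test, Benjamini-Hochberg over 3 minimums, adjusted p 0.747). At least 5 reads were found at 66 sites (13.7%, 10.7 to 17.05) against 5.93%, and at least 10 at 17 sites (3.52%, 2.06 to 5.58) against 0.661% (Fisher's exact test, adjusted p 2.67e-09 and 1.11e-07). The library of the remobilized pool held 2619 reads, 503 of them without a position, and that of the plasmid pool 78338, 15307 of them without a position. The libraries thus differed in depth, whose part in these shares was not tested.

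Of the 12 best-supported sites, 5 lay in introns of protein-coding genes, 1 in a long noncoding RNA gene and 6 in no gene. Ties at 12 reads were broken by chromosome and position, which left out the site in Slc27a4, a fatty acid transporter. The best was at chromosome 19 position 6072366 with 23 reads, in intron 2 of Vps51, which encodes a subunit of complexes that tether vesicles at the trans-Golgi network and endosomes. Its nearest start, 3.99 kb away, was that of Tm7sf2, a sterol reductase. The next, with 18 reads, lay at chromosome 7 position 16736934, 1.48 kb upstream of Ap2s1, the small subunit of the clathrin adaptor AP-2. Nsd1, a histone H3 lysine 36 methyltransferase, had 17 reads in intron 2, 5.63 kb below its start in the direction of transcription. Usp1, a deubiquitinase of DNA repair, had 13 reads 1.62 kb upstream of its start. In Vars, the valyl-tRNA synthetase, 12 reads lay in intron 8, and in Lin52, a subunit of the DREAM complex of cell cycle genes, 12 reads lay in intron 5. Others were outside protein-coding genes. They lay 13.7 kb upstream of Siglec1, a sialic acid receptor of macrophages (16 reads), 13.8 kb upstream of Dcaf12, a receptor of CUL4 ubiquitin ligases (13 reads), and 31.0 kb from the start of Nufip1 (16 reads). One lay in the long noncoding RNA gene C330019F10Rik, 24.1 kb upstream of the RNA helicase gene Helz (15 reads). The farthest from a start was that near Eya1, a transcription cofactor, at 189.4 kb (12 reads).

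The 5 sites nearest to starts had few reads with 1 exception. Il12rb1, a receptor subunit for interleukin 12 and 23, had 10 reads at chromosome 8 position 70808747, in its first intron 298 bp below the start. The site 301 bp upstream of Mrpl58, a peptidyl-tRNA hydrolase of the mitochondrial ribosome, had 3 reads. Those 343 bp upstream of the histone gene Hist2h3b, 361 bp into the predicted gene Gm10800 and 381 bp upstream of Mettl16, an RNA methyltransferase, had 1 read each.

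Coding exons were hit in 6 genes. Eif2b2, a subunit of the exchange factor of translation initiation factor 2, had 6 reads at chromosome 12 position 85226110, at 92.8% of the gene length from its start. Gpr84, a receptor for medium-chain fatty acids, also had 6 reads, at 82.4% of its length. Kif11, a mitotic kinesin needed for bipolar spindles, had 3 reads at 31.8%. The sites in Ighmbp2, a helicase, in Htt, which encodes huntingtin, and in Gm10800 had 1 read each. The stretches of Eif2b2, Gpr84, Kif11 and Htt are among those printed above, and each contains TA within 2 bases of the deposited base.

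A protein-coding gene held more than 1 site in 13 of 224 cases, and none held 3. In 11 of the 13 genes both sites were on the same strand. Some pairs were close together, as in Eya3 (16 bp, 1 read each), Chpt1 (19 bp, 1 and 4 reads), Tmem179b (33 bp, 4 and 2 reads) and Ranbp3 (37 bp, 4 and 1 reads). Elavl2 had sites 94 bp apart, Scfd2 143 bp, 1700102P08Rik 553 bp and Slc28a1 1.76 kb. The widest pairs were in Patl2 (5.12 kb), Naa50 (8.18 kb), Ttc28 (39.9 kb), Arhgef3 (136.4 kb) and Fgfr2 (2445 kb). Naa50, an N-terminal acetyltransferase gene of 23.5 kb, and Patl2, 1700102P08Rik and Tmem179b had 0 plasmid pool sites. Fgfr2 had 40 over its whole annotated length of 2961 kb. Over all sites, 11 pairs of neighbours lay within 1 kb of each other, of which 9 were on the same strand, and the 7 pairs within 100 bp were all on the same strand. Merged at 1 kb, 472 sites remained and 22.2% lay within 5 kb of a start.

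The sites were set beside gene lists, counted in or within 5 kb of a gene and without a test. Of 29 pluripotency genes and of 13 genes of cohesin and CTCF on these chromosomes, none had a site. The plasmid pool had 18 and 24 such sites (0.0650% and 0.0866%), and 0 of 483 allows a share of up to 0.621% by a floor of 3 counts, or 0.761% by the exact interval. For 37 long neuronal genes the count was 0 against 487 (1.76%). These 37 are a selection, and the long genes Dab1, Kirrel3 and Gria1, which it leaves out, had a site each. For 1324 olfactory and vomeronasal receptor genes the count was 0 against 273 (0.985%). That list holds names of Olfr, Vmn1r or Vmn2r and a number alone, and 1 site lay 3.50 kb upstream of Olfr1274-ps, which it leaves out. Hox genes had 0 against 4. The list of 38 chromatin regulators had 2 sites (0.414%, 0.0502 to 1.49, against 0.144%). They lay in Nsd1 and, with 1 read, in intron 3 of Tet1, a 5-methylcytosine dioxygenase. Sites in Dnmt3l, Kmt5b and Sirt1 were not counted, since these genes are not on the list. The list of transcription machinery had 1, in intron 4 of the cyclin gene Ccnt1, and ribosomal protein genes had 1, in the flank of Rps13, 4.21 kb from its start. Zinc finger genes named Zfp and a number alone had 4 sites (0.828%, against 0.971%), in Zfp692, Zfp213, Zfp141 and Zfp609, the first within 5 kb of Zfp672. Another site, in an intron of Prpf6, lay 1.19 kb upstream of Zfp512b, which the list leaves out for its suffix. Olfr1274-ps, Zfp512b and the other genes given as outside a list were named after their values were seen.

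The sites were also looked for in the other libraries. Within 10 bp, 10 of 483 were found elsewhere, 9 of them in the plasmid pool and 1 in a clone. The clone was the line named 20kb, of rad21-dTag genotype and another batch. It had a site in H2afv, a histone H2A variant gene, at chromosome 11 position 6430192 on the same base and strand. Of the 9 sites shared with the plasmid pool, 8 had 1 read in the remobilized pool, and that in Ppp3cb, a calcineurin catalytic subunit gene, had 5. On the plasmid side the reads were 1 at 4 sites, 2 at the site in Ccnt1, and 12, 32, 33 and 35 at the others. Those with 32 and 35 reads, on chromosome 12 near 3109907 and in Gm10800, lay 9 bp from the plasmid pool position. The sites in Ccnt1 and nearest to Grhl1, Pcdh20, E330017A01Rik, Dlgap1 and Trappc8 had the same base and strand in both pools. That in Ppp3cb lay 1 bp away on the other strand. The Gm10800 site was the only 1 of the 483 in a 100 kb window with 20 or more plasmid pool sites. Without the shared sites, 22.6% of the remaining 473 lay within 5 kb of a start.

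Within the remobilized pool the sites were set against those on chromosome 6. The share within 5 kb of a start was 22.4% against 18.4% of 244 (13.8 to 23.9), and in protein-coding genes 48.0% against 45.1% (Fisher's exact test, Benjamini-Hochberg over 3 comparisons, adjusted p 0.372 and 0.479). Of the 244 sites on chromosome 6, 122 lay within 1 Mb, and its shares without that region were not computed. At least 2 reads were found at 54.7% of sites off chromosome 6 and at 63.9% (57.6 to 70.0) on it (Fisher's exact test, adjusted p 0.0517). With positions within 1 kb merged the shares were 55.3% and 66.3% (Fisher's exact test, adjusted p 0.0245).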

How the data were processed

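The authors deposited, for each library, single-base positions, each with its strand and its read count as a whole number. Reads that had no position share 1 further line. FastQC, BWA and deepTools and the build mm10 are named in the submitters' processing notes, with no role or order. Filters and the treatment of duplicate reads are not given in the sources used here. Coordinates are given 1-based on GRCm38. Neighbours up to 10 bp apart were merged, and the best-read of them gave the site's place, and no minimum number of reads was set. Genes came from GENCODE M21, with 1 start per protein-coding gene at its outer end. A site took the first that applied of coding exon, untranslated region and intron, so an exon of a noncoding transcript counts as intron. First introns are those of the principal coding transcript. Bases came from exons or RefSeq promoter windows that hold 10 bases on both sides, since no genome sequence was used here. A check of CpG content of the promoter at the nearest start was void, since only 75.8% of sites had a promoter sequence. The span of a chromosome ran to the end of its last gene.

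For shares of sites, Fisher's exact test was used, two-sided (scipy 1.17.1, Python 3.11.15), adjusted by Benjamini-Hochberg within each family, threshold 0.05. The merging was tried on simulated positions, and Fisher's exact test for the share within 5 kb of a start on simulated counts of independent sites. The other tests were not tried on simulated data. The members, gene lists and comparisons were chosen with earlier results of these data known. Distances to gene ends and the classes of gene density and of reads were added after the data were examined. Named were the 12 best-supported sites, sites in coding exons or within 500 bp of a start, sites found in another library, genes with 2 or more sites, and list genes. The genes of the printed stretches and the longest genes were chosen after their values were seen. One of the best-supported sites is not reported here.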

Additional observations from a re-analysis of the deposited data

Results flagged for a closer look

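A signal outside the 2 pools was found at 1 of the sites. The site in H2afv on chromosome 11, with 1 read in the remobilized pool, had 568 reads in the clonal line named 20kb, at the same base and strand. The control without transposons held 1 read in all and 0 sites, too few reads to serve as a comparison for this site. The clones entered the report only in the search for sites shared between libraries.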

How the results depend on the processing

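No paired analysis was possible because each group has 1 library. The share within 5 kb of a start kept its direction and its side of the threshold under other merging distances, minimum reads, start sets, distances and the leaving out of dense windows or shared sites. Its difference of 13.3 percentage points was 26.7 with at least 5 reads and 12.05 to 14.60 when 1 chromosome was left out. Weighting the plasmid pool to the gene density mix gave 8.32 points, and -9.48 for long genes. With at least 5 reads the difference for long genes was -42.8 points, with 6 of 39 sites (15.4%) against 58.2%. Leaving out 1 chromosome gave 1.68 to 3.45 points for protein-coding genes, 7.84 to 11.2 for the gene strand, -24.6 to -21.3 for long genes, 1.06 to 6.76 for the upstream share and -0.37 to 2.35 for at least 2 reads, which turned negative without chromosome 9 (-0.072), 13 (-0.37) or 17 (-0.29). The gene strand was past the threshold neither with at least 2 reads (8.94 points) nor with at least 5 (15.5 points). Other minimums of reads than 2 did separate the pools, by 10.2 points at 3, 7.74 at 5 and 2.86 at 10 reads. Genes extended by 5 kb gave 11.9 points (main value 2.63). Sites with at least 5 reads gave 8.36 points for protein-coding genes (39 of 66 sites, 59.1% against 50.7%), not past the threshold. The upstream share turned to -1.51 points with at least 2 reads and to -0.50 with starts of genes of any biotype. With at least 5 reads 0 chromosomes differed, by Fisher's exact test on 66 sites, and with at least 2 reads 3 did. Against chromosome 6, at least 2 reads differed by -9.28 points and, merged at 1 kb, by -11.0, past the threshold. The causes were not tested. Coding exons hold only 6 sites and untranslated regions 16, and 45.3% of all sites rest on 1 read.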

Other observations

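Of the 483 sites, 262 (54.2%) were on the plus strand, against 50.2% of the plasmid pool. Another site of the same pool lay within 10 kb of 36 sites (7.45%) and within 100 kb of 79 (16.4%). Over 500 kb from any protein-coding start lay 12 sites (2.48%, 1.29 to 4.30), against 9.78% of the plasmid pool. The site farthest from a start, at 1221 kb, had Pcdh20, a protocadherin gene, as its nearest and was also among those found in the plasmid pool.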
